A study of Mus musculus with 3 samples.

Results

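The cytosolic ribosomal protein genes were followed through 3 lists of open-chromatin peaks from cultured mouse hematopoietic stem cells (HSCs). Members were all protein-coding genes whose symbol is Rpl or Rps with a number and a short suffix, together with Rplp0, Rplp1, Rplp2 and Rpsa. Pseudogenes, the ribosomal S6 kinases and the binding protein gene Rps19bp1 were left out. The rule used no measured value and gave 87 of 21887 protein-coding genes on chromosomes 1 to 19, X and Y. Of these, 77 stood for the standard ribosomal proteins, with 43 genes of the large subunit, 31 of the small subunit and 3 of the P stalk. The other 10 were paralogs or copied genes, namely Rpl10l, Rpl22l1, Rpl32l, Rpl36al, Rpl37rt, Rpl39l, Rpl3l, Rpl7l1, Rps27l and Rps27rt. Members lay on 19 chromosomes, with 14 on chromosome 7, 8 each on chromosomes 9 and 17, 7 on chromosome 11 and 4 on X.

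The cells were FACS-sorted HSCs of adult mTOR wild-type control mice, kept in StemSpan SFEM medium. All donors had received poly(I:C) and had the genotype Mx1-Cre-/-;mTORflox/flox, so every group, the controls included, carried floxed but undeleted mTOR. The 3 groups were the solvent DMSO, 200 nM AZD2014, which competes with ATP at the mTOR kinase, and 1 µM rapamycin, which acts through FKBP proteins on mTOR complex 1. ATAC-seq, in which a transposase puts adapters into accessible DNA, was run on 50000 cells per library, with 1 library per condition. There was thus no replicate check, no test and no p-value, and a difference between lists compares these libraries, not the conditions.

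The ribosomal proteins clothe the ribosomal RNAs of the small subunit, which decodes mRNA, and of the large subunit, which forms peptide bonds, while the P stalk recruits translation factors. Their genes are short, are expressed in nearly every cell, and start transcription at a cytosine followed by pyrimidines. The resulting terminal oligopyrimidine (TOP) stretch at the front of the mRNA makes translation of these messages depend on mTOR complex 1, through Larp1 and the 4E-BP proteins. Blood formation is sensitive to their dosage, and loss of a single copy of genes such as Rps19, Rpl5 or Rpl11 causes Diamond-Blackfan anaemia in humans.

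A gene-end peak is a deposited peak that comes within 1 kb of the first or last base of a RefSeq gene. A start peak is a peak within 1 kb of a start site in a RefSeq promoter table, which held 67 of the 87 members and 17492 genes in all. Members without an entry included Rpl3, Rpl7, Rpl8, Rpl17, Rpl21, Rpl23a, Rpl29, Rpl30, Rpl32, Rpl36, Rplp1, Rps14, Rps20, Rps27a and Rps29. Each peak carries the authors' own score, and its percentile here is the share of the same list that scored lower. Intervals on shares are 95% Wilson intervals and cover counting error only, since read depth is unknown. A peak missing from a list did not pass the authors' threshold there, and peaks of a bulk library cannot tell fewer open cells from less opening per cell.

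The lists held 17189 (DMSO), 21321 (AZD2014) and 18233 (rapamycin) peaks and shared their lowest score. Scores differed between the lists as a whole. Over all protein-coding genes, the highest-scoring gene-end peak had a median score of 209, 293 and 242. The scores given for a gene are therefore read within a list and not between lists. Median peak width was 610, 700 and 710 bp, the median being higher in both drug lists. Of 11 HSC marker genes, Kit, Mecom, Hlf and Meis1 had a gene-end peak in every list, Cd34 and Ptprc had a peak under AZD2014 alone, and 5 had none, among them Ly6a, Slamf1, Procr and Fgd5. Among 22 markers of T cells, B cells, erythroid, myeloid, mast and non-blood cells, such a peak was found at 4 under DMSO, 6 under AZD2014 and 7 under rapamycin, with Cd3d, Klf1 and Col1a1 among those found in every list. Their part in the results on the ribosomal protein genes was not tested.

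Promoters of 5 members are shown because they span the range of the results, from a promoter wholly under a high-scoring peak to a paralog with no peak. Each runs from 250 bases before the RefSeq start site to 30 bases from it on, in GRCm38.p6, with matches on either strand to CCGGAAG (an ETS-family motif), GGGCGG (a GC box) or AAGATGGC (a YY1 core) in capitals. Positions count from 1 at the start site, with negative numbers before it and no 0. Rps19, the gene most often affected in Diamond-Blackfan anaemia, lies at chr7:24884342-24884621 on the plus strand and holds a reverse GC box from position -95. Rps6, whose protein is phosphorylated by the S6 kinases downstream of mTOR, lies at chr4:86857338-86857617 on the minus strand, with an ETS motif from -91 and pyrimidine runs from -1, 1 and 3. Rps4x, an X-linked small subunit gene, lies at chrX:102189362-102189641 on the minus strand and holds a reverse GC box from -32 and a forward copy from -7. Rpl39, a large subunit gene, lies at chrX:37085193-37085472 on the minus strand, with a reverse ETS motif from 24 and pyrimidine runs from -4, 7 and 10. Its paralog Rpl39l, known for expression in male germ cells, lies at chr16:10169978-10170257 on the plus strand, with ETS motifs from -146 and -92 and pyrimidine runs from -7 and -6.
Rps19: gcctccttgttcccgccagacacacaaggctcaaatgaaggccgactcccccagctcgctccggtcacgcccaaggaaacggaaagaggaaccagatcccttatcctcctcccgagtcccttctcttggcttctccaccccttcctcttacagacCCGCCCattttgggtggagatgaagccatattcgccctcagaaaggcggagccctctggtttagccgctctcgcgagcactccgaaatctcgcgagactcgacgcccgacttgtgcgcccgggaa
Rps6: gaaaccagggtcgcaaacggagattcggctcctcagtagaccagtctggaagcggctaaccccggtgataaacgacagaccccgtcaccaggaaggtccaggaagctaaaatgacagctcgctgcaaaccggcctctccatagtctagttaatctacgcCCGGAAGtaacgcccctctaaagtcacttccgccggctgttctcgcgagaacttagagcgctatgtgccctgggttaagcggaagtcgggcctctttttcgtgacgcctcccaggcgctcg
Rps4x: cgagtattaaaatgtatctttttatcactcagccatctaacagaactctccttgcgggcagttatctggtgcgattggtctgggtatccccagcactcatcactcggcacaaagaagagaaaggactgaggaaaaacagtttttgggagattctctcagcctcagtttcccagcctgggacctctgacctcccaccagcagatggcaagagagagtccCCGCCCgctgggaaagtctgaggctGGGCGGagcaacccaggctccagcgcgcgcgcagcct
Rpl39: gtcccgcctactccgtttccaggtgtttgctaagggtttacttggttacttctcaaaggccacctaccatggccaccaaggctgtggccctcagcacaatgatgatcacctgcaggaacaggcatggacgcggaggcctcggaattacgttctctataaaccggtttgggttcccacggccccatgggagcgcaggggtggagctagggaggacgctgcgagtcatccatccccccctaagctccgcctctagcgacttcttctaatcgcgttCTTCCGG
Rpl39l: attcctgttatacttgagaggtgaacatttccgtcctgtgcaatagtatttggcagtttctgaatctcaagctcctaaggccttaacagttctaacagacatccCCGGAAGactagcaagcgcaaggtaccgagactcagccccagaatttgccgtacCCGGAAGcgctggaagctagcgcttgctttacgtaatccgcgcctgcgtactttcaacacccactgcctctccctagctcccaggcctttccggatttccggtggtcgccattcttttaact

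All 280 printed bases of Rps19, Rps6 and Rpl39 lay under a peak in every list, whereas none of the Rpl39l bases did. Rps4x was covered in part, over 117 bases under DMSO (41.8%), 226 under AZD2014 (80.7%) and 143 under rapamycin (51.1%). Rpl39 and Rpl39l both hold the ETS motif, from 24 in reverse in Rpl39 and from -146 and -92 in Rpl39l, and a pyrimidine run near the start. Rps4x holds 2 GC boxes and had the lowest mean score percentile of all members with a peak.

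Nearly all members were open at a gene end in all 3 lists. A gene-end peak was found for 78 of 87 members under DMSO (89.7%, interval 81.5 to 94.5%), 79 under AZD2014 (90.8%, interval 82.9 to 95.3%) and 78 under rapamycin (89.7%). Over all protein-coding genes, these shares were 46.0%, 49.5% and 46.9%. The same 78 members were found in all 3 lists, against 43.5% of all genes, and 8 members (9.20%) were found in none, against 48.5% of all genes. The mitochondrial ribosomal protein genes (78 genes named Mrpl or Mrps) had 66 (84.6%, interval 75.0 to 91.0%), 73 (93.6%, interval 85.9 to 97.2%) and 68 (87.2%, interval 78.0 to 92.9%) genes with a gene-end peak. The cytosolic share was the higher under DMSO and rapamycin and the lower under AZD2014. The intervals of the cytosolic and mitochondrial sets overlapped in each list, and the difference was not tested.

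All 77 standard genes had a peak in the gene or within 1 kb in every list, and the few without a gene-end peak had it further inside the gene. By this looser measure the shares were 54.3%, 58.4% and 55.5% over all genes under DMSO, AZD2014 and rapamycin. Over mitochondrial ribosomal protein genes they were 92.3%, 100% and 93.6%. A gene-end peak was found for 41 of 43 large subunit genes, 30 of 31 small subunit genes and all 3 stalk genes in each list. The exceptions were Rpl19, Rpl17 and Rps2. The annotated Rpl19 gene (chr11:98022003-98030493) extends well beyond the start site under its peak, which scored 173, 290 and 240 in the DMSO, AZD2014 and rapamycin lists. The Rps2 peak (chr17:24719626-24720415 under DMSO) scored 260, 276 and 218 and likewise covered a listed start site inside the annotated gene. The Rpl17 peak lay inside the gene, 1093, 1029 and 1255 bp from the nearer gene end, and scored 188, 222 and 156. Counted at start sites instead, all 57 standard genes in the promoter table had a start peak in every list.

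Start peaks were found for 61 of 67 members (91.0%, interval 81.8 to 95.8%) in each list, against 48.5%, 51.8% and 49.5% of all genes under DMSO, AZD2014 and rapamycin. The 6 without a start peak in any list were Rpl10l, Rpl32l, Rpl37rt, Rpl39l, Rpl3l and Rps27rt, all of them paralogs or copies. Those with a start peak were the other 4 paralogs, Rpl22l1, Rpl36al, Rpl7l1 and Rps27l. Among mitochondrial ribosomal protein genes, 63, 69 and 64 of 69 had a start peak.

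Rpl10l and Rpl3l belong to the paralogs known for restricted expression, in testis and in striated muscle. For Rpl10l, the nearest peak was 450 kb away under DMSO and 391 kb away under each drug. Rpl39l lay 112, 17.7 and 17.8 kb from its nearest peak, and Rpl32l 59.3, 10.5 and 10.4 kb. Peaks came closer to the copies Rpl37rt (8.80, 8.59 and 8.73 kb) and Rps27rt (3.61, 3.60 and 3.69 kb) without touching them. Rpl3l did have a gene-end peak, with scores of 248, 328 and 250, but it lay at the far end of the gene, next to the end of Msrb1, with its centre 8699 bp from the Rpl3l start under DMSO. The ubiquitously expressed counterparts of these genes carried peaks in every list. Rpl10, which lies on X and joins the large subunit late in assembly, scored 290, 385 and 352, and Rpl3, near the peptidyl transferase centre, scored 221, 343 and 304. The Rpl39 peak scored 200, 366 and 225, at percentiles 69.3, 82.3 and 70.0.

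The 4 paralogs with a start peak carried it in every list, and their values are given beside those of the standard genes. Rpl22, which is needed for alpha-beta T cell development, scored 347, 524 and 495 (percentiles 89.0, 92.7 and 94.5). Its paralog Rpl22l1 scored 253, 464 and 349 (percentiles 78.2, 89.6 and 85.0), below Rpl22 in every list. Rps27l, a p53-induced paralog of Rps27, had a peak over a listed start site with scores of 314, 346 and 356, against 291, 276 and 195 for Rps27. Rpl7l1, a paralog that works in ribosome assembly, scored 204, 250 and 293. At Rpl36al, next to Mgat2, 2 neighbouring peaks under DMSO, scoring 244 and 52.0, stood where each drug list held a single peak, scoring 492 and 365.

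Expression of processed pseudogenes was not measured, but their loci could be checked. Of 319 pseudogenes named Rpl or Rps, 2, 3 and 1 had a gene-end peak under DMSO, AZD2014 and rapamycin (0.627%, 0.940% and 0.313%), and no peak touched any of these pseudogenes. Other pseudogenes numbered 9645 and had a gene-end peak in 1.71%, 2.42% and 1.94%. A peak touched only 109, 152 and 133 of these 9645, so touching was rare in both sets, and the difference was not tested.

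Within each list, the members' peaks gathered in the upper middle of the score range. Their median percentile was 73.3 under DMSO (95% interval of the median 70.0 to 77.5), 79.4 under AZD2014 (77.4 to 83.1) and 76.7 under rapamycin (70.4 to 81.4). Over all genes with a gene-end peak, the medians were 71.0, 75.1 and 72.6, and over mitochondrial ribosomal protein genes 68.0, 72.8 and 71.5. The sets differed more in spread than in median. Only 5, 2 and 5 members fell in the lower 50% of a list (6.41%, 2.53% and 6.41%), against 24.4%, 19.2% and 22.2% of all genes and 27.3%, 16.4% and 22.1% of mitochondrial ribosomal protein genes. At the other extreme, 10, 12 and 12 members reached the top 10% (12.8%, 15.2% and 15.4%), against 18.1%, 21.4% and 19.2% of all genes and 12.1%, 20.5% and 13.2% of mitochondrial ribosomal protein genes. The middle 50% of members spanned percentiles 64.6 to 84.0, 72.3 to 86.1 and 65.3 to 85.1, inside the 50.8 to 86.1, 56.7 to 88.3 and 53.0 to 86.9 of all genes.

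**Figure D1:**
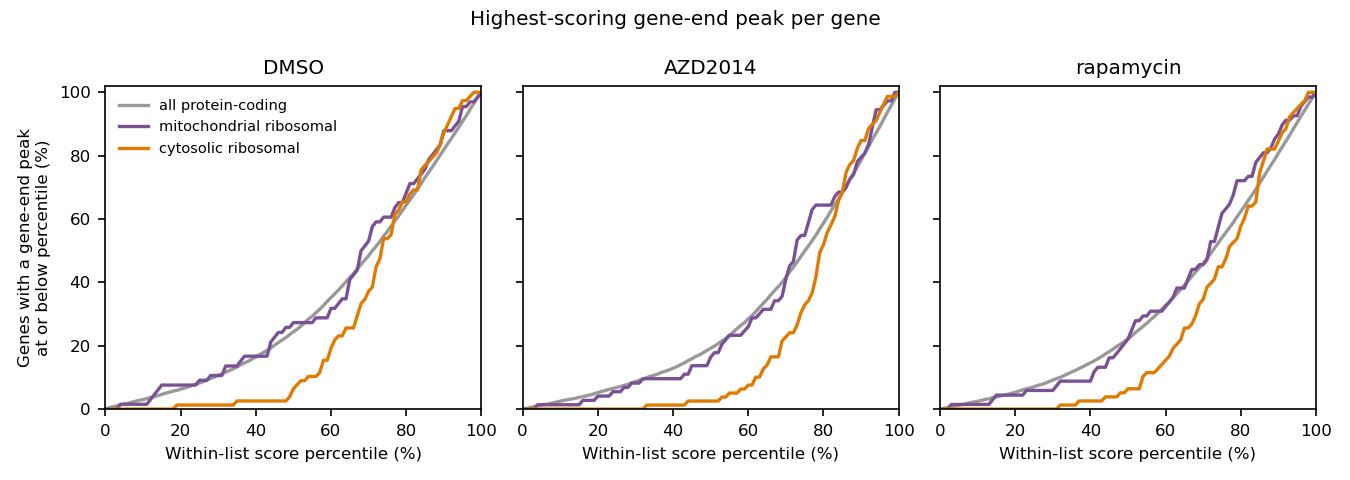
Cumulative share of genes (y axis, %) whose highest-scoring gene-end peak lies at or below a within-list score percentile (x axis, %), 1 panel per list, for cytosolic ribosomal, mitochondrial ribosomal and all protein-coding genes that had such a peak. The cytosolic line stays at or below the others up to percentile 76 under DMSO and 84 under AZD2014 and rapamycin. Of these genes, 6.41%, 2.53% and 6.41% lie in the lower 50% of the list, and the line climbs more steeply from about the middle of the axis.

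Large subunit genes had median percentiles of 71.2, 78.1 and 73.2 and small subunit genes 78.3, 82.0 and 78.5. The small subunit median was the higher in every list. The intervals of these medians overlapped in each list, for example 66.6 to 76.1 and 71.4 to 84.2 under DMSO, and the difference was not tested. The stalk genes Rplp0, Rplp1 and Rplp2 stood at percentiles 88.2, 73.9 and 76.6 under DMSO, 78.8, 85.0 and 78.1 under AZD2014 and 75.6, 75.7 and 84.2 under rapamycin. No stalk gene held the same place among the 3 in every list.

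**Figure D2:**
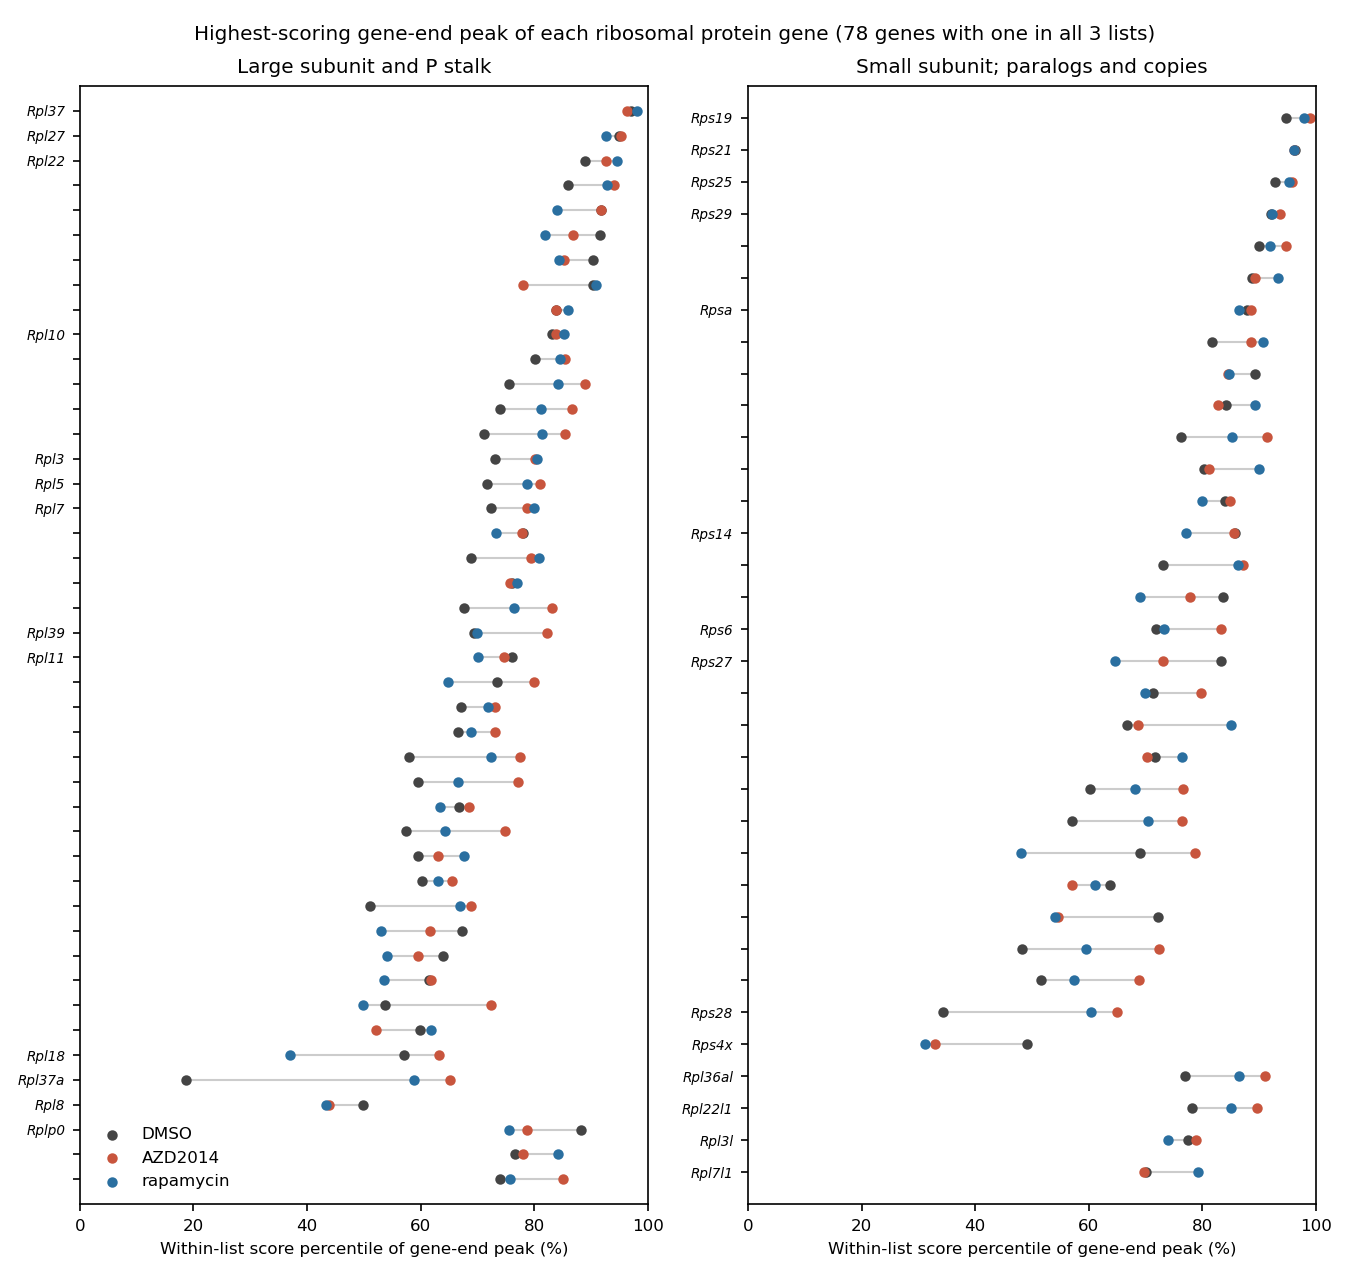
Within-list score percentile (x axis, %) of the highest-scoring gene-end peak for each of the 78 ribosomal protein genes that had such a peak in all 3 lists (y axis, only genes named in the text are labelled), with 1 dot per list and a grey line over the range of the 3 lists. Rps19, Rpl37 and Rps21 stay above 94 in every list, whereas Rpl37a spans 46.3 percentile points, the widest range, over lists of unequal length.

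The 5 highest members by mean percentile were Rps19, Rpl37, Rps21, Rps25 and Rpl27. Rps19 scored 432, 795 and 623 under DMSO, AZD2014 and rapamycin, which put it at percentiles 94.8, 99.0 and 97.9 over widths of 1138, 1249 and 1364 bp. Rpl37, a zinc-finger protein of the large subunit, stood at percentiles 97.0, 96.3 and 98.0. Rps21 stood at 96.3, 96.2 and 96.1. Rps25, known for its role in internal initiation on viral RNAs, stood at 92.8, 95.7 and 95.2, and Rpl27 at 94.9, 95.2 and 92.6. These 5 and Rps29 (92.0, 93.6 and 92.3) were the 6 members above the 90th percentile in all 3 lists.

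The 5 lowest members by mean percentile were Rps4x, Rpl8, Rpl37a, Rpl18 and Rps28. Rps4x scored 121, 87.7 and 81.6 at percentiles 49.1, 32.9 and 31.1, with narrow peaks of 477, 493 and 427 bp. Rpl8, a large subunit protein near the peptidyl transferase centre, scored 123, 114 and 108 at percentiles 49.9, 43.9 and 43.4. Those genes were low in every list, while the other low members were low in only some. Rpl37a scored 65.8, 215 and 165 under DMSO, AZD2014 and rapamycin (percentiles 18.7, 65.1 and 58.8), beside median scores of 209, 293 and 242 over all genes. Rps28 was likewise lowest under DMSO, with scores of 87.5, 214 and 173 (percentiles 34.3, 64.9 and 60.4). Rpl18 was low through its gene-end peak (scores 146, 203 and 92.5), which covers no listed start site, and its start peak scored higher, at 157, 281 and 238.

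Other members chosen for their known roles lay between these ends. Rps6 scored 214, 378 and 246 (percentiles 71.9, 83.3 and 73.2). Rpl5 and Rpl11, which together with ribosomal RNA bind Mdm2 and stabilise p53, scored 213, 352 and 289 and 239, 288 and 226. Their percentiles were 71.7, 81.0 and 78.8 for Rpl5 and 76.1, 74.7 and 70.1 for Rpl11, close to the members' median. Rps14, the gene tied to the anaemia of a deletion form of myelodysplastic syndrome, scored 313, 404 and 276 (percentiles 85.8, 85.5 and 77.2). Rpsa, the small subunit protein also known as the laminin receptor precursor, scored 331, 448 and 366 and stayed between percentiles 86.5 and 88.5.

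Peak widths of the members were ordinary for gene ends. Median widths were 777 bp under DMSO, 923 bp under AZD2014 and 877 bp under rapamycin, beside 783, 942 and 906 bp for all genes and 740, 817 and 851 bp for mitochondrial ribosomal protein genes. The range over members was 477 to 1858, 493 to 2182 and 427 to 1843 bp. Rpl7 had the widest peak in each list (chr1:16104114-16105971 under DMSO), and that peak also came within 1 kb of an end of its neighbour Rdh10. The next widest by mean width were Rps29 (1191, 1385 and 1540 bp), Rps19, Rps25 (1054, 1301 and 1220 bp) and Rpl10 (1157, 1155 and 1262 bp). The member genes are short, with a median length of 3.17 kb against 17.2 kb over all genes. All gene-end peaks of a member together covered a median of 10.8%, 13.3% and 12.4% of the gene, a share not counted over all genes. The best peak lay within 1 kb of another protein-coding gene's end for 20 members in each list (25.6%, 25.3% and 25.6%), against 29.8%, 29.4% and 30.1% of all genes, and cannot be given to either gene alone.

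The members' start peaks lay over the transcription start. A peak covering a listed start site was taken first in every set, so this choice fixed part of the coverage. All 61 start peaks covered a listed start site in every list, against 94.5%, 94.9% and 95.3% of start peaks over all genes. Over mitochondrial ribosomal protein genes the shares were 95.2%, 97.1% and 96.9%. Centres of the members' start peaks lay at median positions of -41.0, -22.0 and -41.0 bp from the start, just upstream. The centre was within 250 bp of the start for 59, 55 and 57 of the 61 (96.7%, 90.2% and 93.4%), against 86.6%, 84.2% and 85.0% over all genes. The mitochondrial ribosomal protein genes had 90.5%, 85.5% and 87.5%. Members' start peaks reached a median of 367, 491 and 494 bp upstream, beside 391, 459 and 448 bp over all genes. Downstream they reached 343, 420 and 408 bp, beside 369, 457 and 436 bp.

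**Figure D3:**
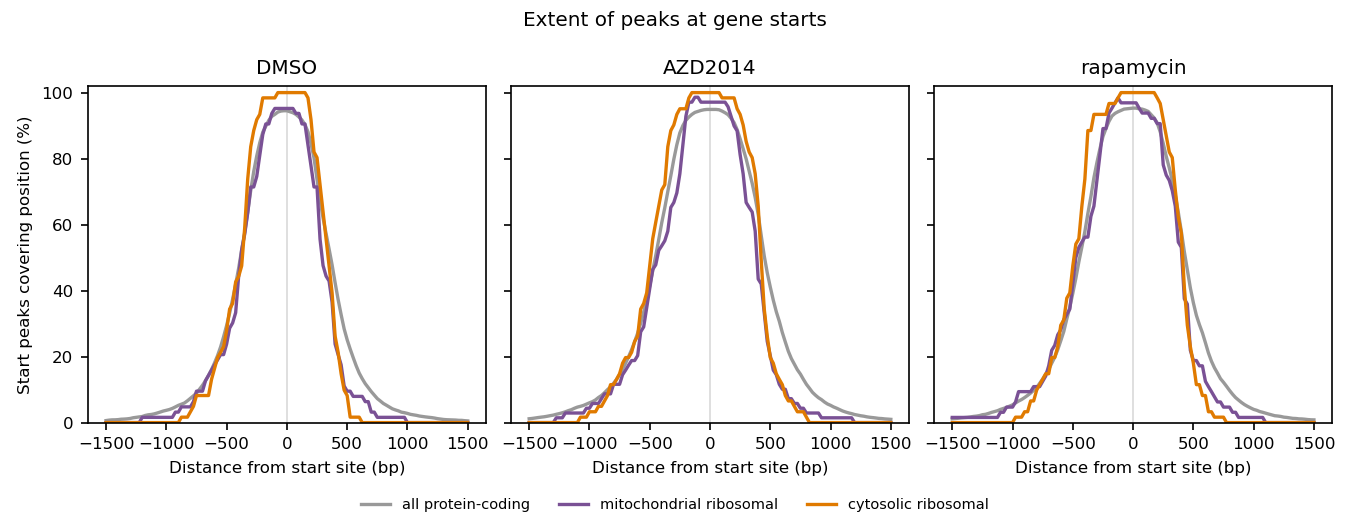
Share of start peaks (y axis, %) that cover each position relative to the start site (x axis, bp, negative upstream), 1 panel per list, for cytosolic ribosomal, mitochondrial ribosomal and all protein-coding genes. The cytosolic line reaches 100% at the start in each panel, beside 94.5%, 94.9% and 95.3% for all genes, and lies below the line of all genes from 500 bp downstream on. A peak covering a listed start site was taken first in every set.

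Motif content was counted in the whole 300-base promoter windows of the 67 members in the table, from 250 bases before to 50 after the start, on both strands unless stated. CCGGAAG was found in 25 windows (37.3%, interval 26.7 to 49.3%), against 11.9% of all 17492 promoters and 21.5% of the 8088 with a start peak in all 3 lists. The mitochondrial ribosomal protein genes held it in 34.8%, a share inside the interval of the members. GGGCGG was found in 39 windows (58.2%, interval 46.3 to 69.3%), between the 46.3% of all promoters and the 69.7% of those with a start peak. A C followed by at least 4 pyrimidines within 10 bases of the start, the sequence of a TOP start, was found in 39 windows (58.2%), against 31.1% of all promoters, 32.0% of those with a start peak and 43.5% of mitochondrial ribosomal protein genes. It was found in 34 of the 61 members with a start peak (55.7%) and in 5 of the 6 without.

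The remaining motifs were found in fewer windows. AAGATGGC was found in 6 windows (8.96%, interval 4.17 to 18.2%), against 3.21% of all promoters, 5.38% of those with a start peak and 17.4% of mitochondrial ribosomal protein genes. TATAAA on the gene strand was found in 7 windows (10.4%), against 8.99% of all promoters and 3.66% of those with a start peak. CACGTG, the E box bound by Myc, was found in 5 windows (7.46%, interval 3.23 to 16.3%), against 7.91% of all promoters and 11.0% of those with a start peak. CCAAT was found in 21 windows (31.3%, interval 21.5 to 43.2%), against 39.2% and 41.3%. These counts describe letters in a window and do not show that a factor binds there.

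CpG content was higher in promoters with a start peak, among members as among all genes. The observed over expected CpG ratio had a median of 0.86 in member promoters, 0.58 in all promoters, 0.81 in all promoters with a start peak in every list and 0.22 in those with none. It was 0.90 in the 61 members with a start peak (range 0.42 to 1.25) and 0.52 in the 6 without (range 0.09 to 0.84). Rpl39l at 0.84, Rpl10l at 0.64 and Rps27rt at 0.63 lay inside the range of the members with a peak, while Rpl37rt at 0.41, Rpl32l at 0.33 and Rpl3l at 0.09 lay below it. Among the members with a start peak, the ratio gave no order to the scores, with Spearman's rho of -0.05, -0.03 and -0.09 between ratio and percentile in the 3 lists (61 genes that share a library, given as a description).

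**Figure D4:**
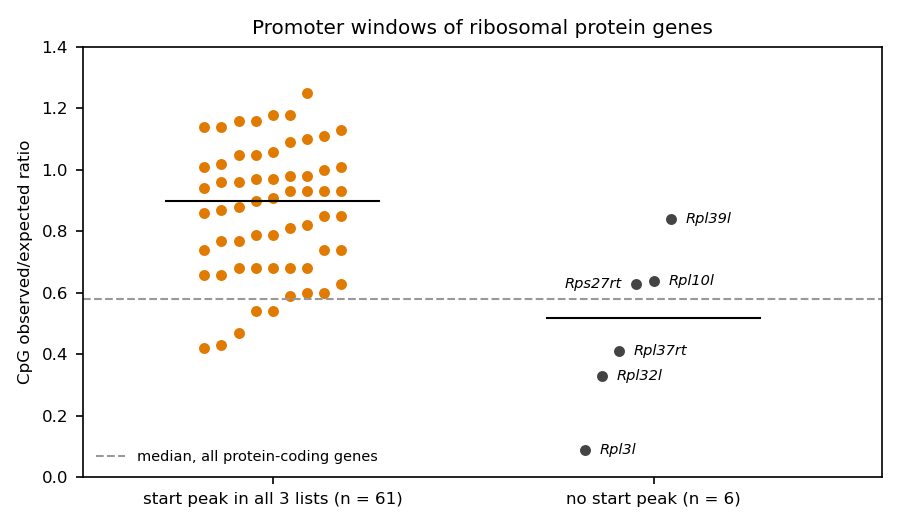
Observed over expected CpG ratio (y axis) of the promoter windows of 67 ribosomal protein genes, split by whether a start peak was found in all 3 lists or in none; each dot is a gene, solid bars are medians (0.90 and 0.52) and the dashed line is the median of all promoters (0.58). Rpl39l, Rpl10l and Rps27rt lie among the values of the genes with a start peak.

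Start peaks of the 38 members with GGGCGG had higher median percentiles than those of the 23 without it in each list, at 79.7 against 69.3 under DMSO, 80.8 against 74.7 under AZD2014 and 83.0 against 70.0 under rapamycin. For CCGGAAG (24 with, 37 without), the medians were 74.6 against 71.7, 81.3 against 77.9 and 78.2 against 73.2. The TOP-like start (34 with, 27 without) gave 74.8 against 71.7, 79.6 against 78.8 and 74.8 against 76.4, so its order turned between lists. The 3 lists share these genes and their base composition, so the repeats are not independent.

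The comparison of AZD2014 with DMSO asks whether blocking the mTOR kinase was accompanied by other accessibility at the genes of the machinery it controls. Of the 87 members, 1 was called at a gene end in the AZD2014 list but not the DMSO list (1.15%, interval 0.203 to 6.23%), against 4.63% of all genes, and 0 were called in the DMSO list but not the AZD2014 list (upper bound 4.23%), against 1.09%. With both lists cut to their 17189 highest-scoring peaks, the counts of members stayed 1 and 0, beside 3.03% and 1.96% of all genes. The single gene was Rps27l, and its difference was one of position. Its peaks overlapped in all 3 lists, at chr9:66945651-66946535 under DMSO, chr9:66945601-66946699 under AZD2014 and chr9:66945703-66946758 under rapamycin. The AZD2014 peak reached 23 bases into the gene-end window, while the others stopped 27 and 79 bases short of it. At start sites, 0 of 67 members differed in either direction (upper bound 5.42%). Over all genes, 4.29% had a start peak under AZD2014 alone and 0.966% under DMSO alone. Each of these shares of all genes, at gene ends and starts, lay inside the members' interval, so these counts do not set the members apart. The mitochondrial ribosomal protein genes had 6 of 69 start peaks under AZD2014 and not DMSO, at Mrpl35, Mrpl53, Mrps25, Mrps22, Mrpl42 and Mrpl21, and 0 in reverse.

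Peaks at members were wider under AZD2014 than DMSO for 67 of 78 overlapping pairs (85.9%, interval 76.5 to 91.9%), beside 85.4% of all genes, with a median width ratio of 1.20 beside 1.22. Position in the list moved in both directions. In lists of equal length, 37 of 78 members stood nearer the top under AZD2014 (47.4%, interval 36.7 to 58.4%), against 52.2% of all genes. The median difference was -0.704 percentile points, beside 0.291 over all genes, and the middle 80% of members ran from -14.6 to 12.0 points, beside -11.4 to 13.7. Rpl37a went from rank 13968 under DMSO to rank 7447 of 17189 under AZD2014, and Rps28 from 11292 to 7476. Rps15, a small subunit gene, went from 8894 to 5905. Toward the opposite end were Rps4x, from 8748 to 14315, and Rpl8 and Rpl24, each at a difference of -19.4 points. Without replicates, none of these moves can be set against the spread between libraries of 1 condition.

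Rapamycin beside DMSO gave no member with a changed gene-end status. The count was 0 of 87 in both directions (upper bound 4.23%), against 3.05% of all genes with a gene-end peak under rapamycin alone and 2.09% under DMSO alone, or 2.66% and 2.34% in lists of equal length. It was also 0 of 67 at start sites (upper bound 5.42%), against 2.92% and 1.97%. All of these shares of all genes lay below the upper bounds, so counts of 0 do not set the members apart. Mitochondrial ribosomal protein genes had start peaks under rapamycin alone at Mrps22, Mrpl42 and Mrpl21 and under DMSO alone at Mrps21 and Mrps31. Wider peaks under rapamycin were found for 61 of 78 members (78.2%, interval 67.8 to 85.9%), against 77.5% of all genes, with a median width ratio of 1.14 beside 1.16. In lists of equal length, 44 of 78 stood nearer the top under rapamycin (56.4%, interval 45.4 to 66.9%), against 51.4% of all genes. The median difference was 1.13 percentile points, beside 0.186 over all genes.

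Rpl37a and Rps28 again stood nearest the positive end, at ranks 7516 and 7223 under rapamycin, but both drug comparisons share the DMSO list and are not independent. Large moves down included those of Rps4x (8748 to 12558) and of the Rpl18 gene-end peak (7395 to 11490), which covers no listed start site. The Rpl18 start peak went the other way, from percentile 59.9 of the full list under DMSO to 72.0 under rapamycin. Rps27 had a difference of -20.8 points, with scores of 291 under DMSO and 195 under rapamycin.

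**Figure D5:**
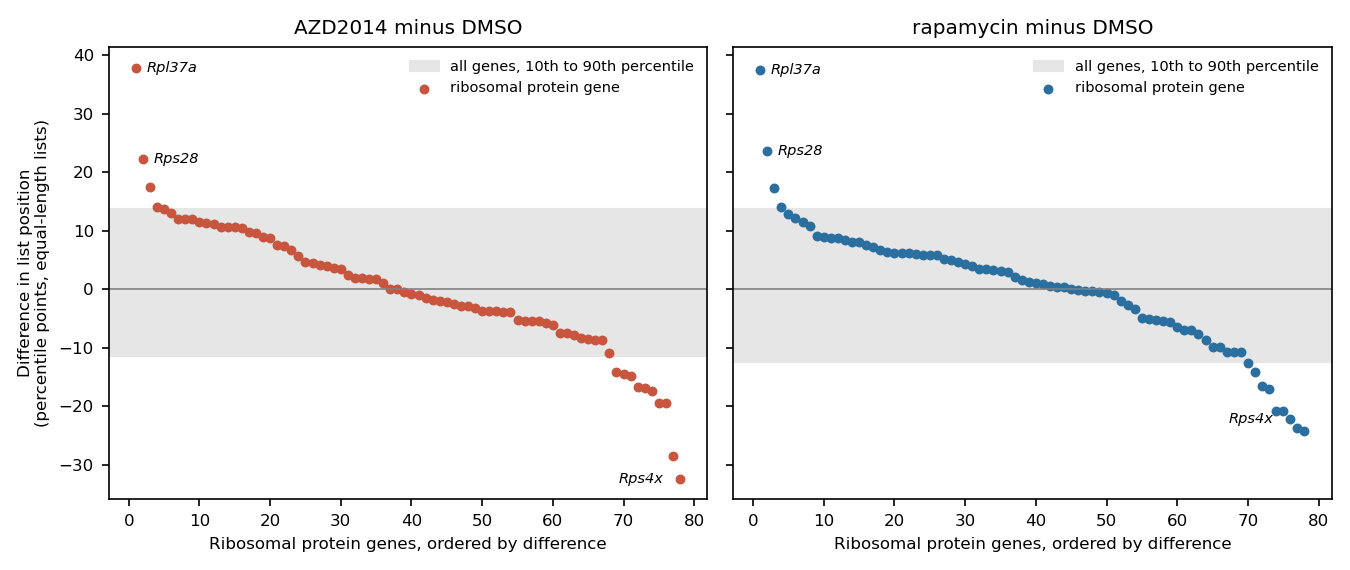
Difference in list position, in percentile points over lists of 17189 peaks each (y axis, positive means nearer the top under the drug), for the 78 ribosomal protein genes ordered by that difference (x axis), with the 10th to 90th percentile of all genes in grey. Most genes lie within the grey band, and Rpl37a lies furthest above it in both panels, which share the DMSO list, at 37.9 and 37.5 points.

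Between the inhibitors, which were given at different doses, values are set side by side. The single member called at a gene end for AZD2014 but not rapamycin was again Rps27l, beside 3.79% of all genes, and 0 members showed the reverse, beside 1.21%; in lists of equal length the same counts stood beside 2.53% and 1.79%. At start sites the count was 0 of 67 in both directions (upper bound 5.42%), beside 3.49% and 1.12%. Here too the shares of all genes lay inside the members' intervals, so the counts do not set the members apart. Peaks were wider under AZD2014 than rapamycin at 43 of 78 members (55.1%, interval 44.1 to 65.7%), beside 62.0% of all genes. In lists of equal length, 40 of 78 stood nearer the top under AZD2014 (51.3%), beside 50.7%. The Rpl18 gene-end peak, off the listed start site, stood 21.3 percentile points nearer the top under AZD2014, and Rpl24 had a difference of -19.0 points. At the Rpl18 start peak, the full-list percentiles were 73.8 under AZD2014 and 72.0 under rapamycin.

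With all 3 lists cut to 17189 peaks, a member's position ranged over a median of 10.2 percentile points, and 39 of 78 members stayed within 10 points and 70 within 20. Wide ranges included those of Rpl37a (37.9), Rps4x (32.4), Rpl18 (23.8, at a peak off its listed start site) and Rps28 (23.7). Narrow ranges included those of Rps29 (0.297), Rpl32 (0.477) and Rps21 (1.06). All 78 best peaks overlapped each other across the lists, 70 members were above the 50th percentile of each full list, and 83 of 87 had the same number of gene-end peaks. The 4 with another number were Rps27l, Rpl36al, Rps15a and Rps18. Rps15a had a weak second peak, scoring 87.9 and 55.7, under AZD2014 and rapamycin only, and Rps18 had a weak second peak near B3galt4, scoring 59.5 and 65.8, under DMSO and AZD2014 only. These counts of members over the 3 lists were not made over all genes and do not set the members apart. Spearman's rho of the members' score order was 0.81 for DMSO and AZD2014, 0.82 for DMSO and rapamycin and 0.86 for the drugs (78 genes, which share loci and base composition), beside 0.91, 0.90 and 0.92 over 9526 genes, whose scores spread more widely.

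Most other genes of the translation machinery had gene-end peaks too. Fau, which encodes a ribosomal protein fused to a ubiquitin-like protein, and Rack1, a scaffold on the small subunit, had gene-end peaks in every list. Fau stood at percentiles 46.0, 70.8 and 51.7 and Rack1 at 77.5, 82.8 and 63.3. Of 17 translation factors and other genes known for TOP mRNAs, 16 had a gene-end peak in each list, with Larp1, the TOP-binding repressor, the exception. Their median percentiles were 85.8, 88.4 and 85.8, beside the members' 73.3, 79.4 and 76.7 and 71.0, 75.1 and 72.6 over all genes. Of all genes, 46.0%, 49.5% and 46.9% had a gene-end peak. Hnrnpa1, an RNA-binding protein gene, was the highest of those named here, at 99.1, 99.8 and 99.2, followed by Pabpc1, the poly(A)-binding protein gene, at 97.7, 96.9 and 94.1, while Eef2, the translocation factor gene, stood at 87.3, 85.5 and 84.9.

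Of 27 ribosome assembly genes, 25 had a gene-end peak in each list, the exceptions being Pes1 and Ubtf. Their median percentiles were 79.0, 83.0 and 80.7, beside 71.0, 75.1 and 72.6 over all genes, of which 46.0%, 49.5% and 46.9% had a gene-end peak. Ncl (nucleolin) stood at 96.4, 97.4 and 95.9 and Gas5, a host of small nucleolar RNAs with a TOP start, at 97.0, 98.0 and 97.5. Other genes of this list, chosen after their values were seen, had wide ranges between the lists, whose unequal lengths enter these percentiles. Utp20, of the small subunit processome, stood at 8.51, 70.5 and 39.6, and Tsr1, a small subunit assembly factor, at 21.8, 58.7 and 65.3. Grwd1 stood at 42.8, 43.3 and 1.90, and Nle1, a large subunit assembly factor, at 47.7, 49.3 and 12.6. These values are from 1 library each, and their spread between replicates is not known.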

How the data were processed

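ATAC-seq was done on 1 library per condition. The authors deposited 1 peak list per library, with a position, a name holding the word MACS and a score per peak. The submitters' processing notes name CASAVA and the build mm10. Caller settings, aligner, duplicate handling and transposase shift all bear on the number and width of weak peaks, and for them and the drug exposure time the sources used here give nothing. The deposited score is the authors' own unit and was used to rank peaks within a list.

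Groups came from the sample titles. Starts were counted from 1, and peaks were matched to genes and start sites of RefSeq tables (GRCm38.p6, the assembly mm10 names). A peak covering a start site stood for a start before the highest-scoring peak. Lists were also cut to 17189 peaks each, since percentiles from full lists depend on list length. No test was possible with 1 library per condition. The members and lists were chosen with earlier results of these data known. Named genes were all members without a gene-end peak or with a differing status, the 5 highest and 5 lowest by mean percentile, the 5 widest, and 21 fixed by role, of which Rps4l is not protein-coding in the table; others were picked with their values known. Some genes are not reported here by name. An altered copy of the DMSO list was tested as simulated data over 21887 genes. All 200 genes whose gene-end peaks were removed, and all 300 given an added peak, were found. Python 3.11.15, numpy 2.4.6, pandas 2.3.3, scipy 1.17.1 and matplotlib 3.10.9 were used.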

Additional observations from a re-analysis of the deposited data

How the results depend on the processing

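Of 110 alternative values, 9 moved, by over 1.5 times for a count or beyond the interval of a median. The alternatives were gene ends of 500 or 2500 bp, lists of equal length, the upper 50% of each list, peaks set to 200 bp, no paralogs or copies, start sites only, autosomes and X only, and for score and width the widest gene-end peak; widths were also summed, whereas a sum has no percentile. The single member called at a gene end for AZD2014 but not DMSO became 0 with gene ends of 500 bp, with gene ends of 2500 bp, with peaks of 200 bp, without paralogs and copies, and at start sites only. In the upper 50% of each list that count was 4 of 87 (Rps27l, Rpl37a, Rps15 and Rps28), beside 5.86% of all genes. There the count for rapamycin but not DMSO was 3 of 87 (Rpl37a, Rps15 and Rps28), beside 3.62%. In that same upper 50%, the count for DMSO but not rapamycin was 3 of 87, beside 1.85%. Among these were Rpl23a and Rpl18, the latter at a peak off its listed start site. The median percentile under AZD2014 was 74.5 in lists of equal length, beside 79.4, because fewer low-scoring peaks were ranked. The number of members with a gene-end peak was 77 in each list with gene ends of 500 bp and 81 with 2500 bp, 73, 77 and 73 in the upper 50%, and 61 of the 67 with a listed start at start sites only. No paired analysis was possible because there was 1 library per condition. Read depth is unknown, so weak peaks missing from a list cannot be told apart from shallower sequencing.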
